A study of Mus musculus with 11 samples.

Results

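The lysosome is the acidic compartment in which cells break down lipids, glycans, glycosaminoglycans and proteins. Its soluble acid hydrolases reach it largely by mannose-6-phosphate tags, its membrane is lined by heavily glycosylated proteins, and a proton pump, the V-ATPase, keeps its lumen acidic. In the liver it supplies free cholesterol and fatty acids from lipoproteins taken up by hepatocytes and from lipid droplets delivered by autophagy, and resident macrophages are rich in it. Many lysosomal promoters carry an E-box palindrome that is recognised by the MiT/TFE family of transcription factors, of which TFEB is the best known.

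The genes described here are 43 lysosomal genes, taken by gene symbol from the 13669 genes of the count table. The list was chosen with earlier results of these data known, so its shares beside all genes are description only. They fall into 4 lipid and acyl hydrolases, 9 proteases, 11 glycosidases, 4 sulfatases, 3 soluble proteins without an enzyme activity of their own, 6 membrane proteins and 6 subunits of the proton pump. All 43 were present in the table and all 43 passed the low-count filter, which asked for over 10 counted reads in 5 or more livers. Of the members with the fewest reads, *Idua* and *Galns* each had more than 10 reads in 4 of the 5 AAV-NC livers and *Arsb* in 3 of them, and each of the 3 had more than 10 in all 6 AAV-TuD livers, so these genes passed mainly through one group.

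The study asked what happens in the adult liver when the *miR-379/miR-410* cluster of microRNAs is repressed by a decoy for *miR-379* and *miR-541*. RNA was taken from whole livers of 11 wild-type male C57BL/6J mice on regular chow, all of which had received a recombinant adeno-associated virus by tail vein. In 6 mice the virus carried a tough decoy (TuD), an RNA with binding sites for the microRNAs (AAV-TuD), and in 5 a negative control sequence (AAV-NC). There was no group without virus. The study describes the decoy as acting on host transcripts of the cluster as well, so that further microRNAs of the cluster are lowered with the pair it binds. In both groups expression was driven by LP1, a promoter for hepatocytes that joins regulatory DNA of human apolipoprotein and alpha-1-antitrypsin genes, so the decoy was directed to hepatocytes whereas the RNA came from every cell of the liver. The labels give neither the age of each mouse nor the time after injection, and they give the genotype of both groups as WT. The labels name the libraries by group and number and do not say whether livers were handled in batches.

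The libraries were made from the 3′ ends of polyadenylated transcripts. Read numbers then do not grow with the length of a transcript, so levels, given as CPM (counts scaled to a common library size), can be compared between genes. MicroRNAs are not captured by such libraries. Each liver gave 8148531 to 12043959 counted reads. The major urinary protein (*Mup*) genes, abundant hepatocyte transcripts, took 38.6% of these reads in AAV-NC liver 7, 30.9% in AAV-TuD liver 3 and 28.4% in AAV-TuD liver 5, against 8.09% to 18.7% in the other livers. CPM were therefore scaled by TMM, and counts of members are also given below without these 3 livers, a choice made after seeing the data. Hepatocyte genes dominated every liver, with summed levels of 45135 to 57136 CPM over 15 markers including *Alb*.

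The mature microRNAs are shown first because their seeds, bases 2 to 8, are what the 3′ UTRs of the lysosomal genes were searched for. A transcript can also be bound through shorter matches or outside its 3′ UTR, so a full match is neither needed nor enough for a target. They are RefSeq sequences on GRCm38.p6, both on the plus strand, written 5′ to 3′ with the seed in capitals. The 2 seeds differ, so a transcript can match either one alone.
mmu-miR-379-5p (chr12:109709065-109709085): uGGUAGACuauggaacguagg
mmu-miR-541-5p (chr12:109742422-109742446): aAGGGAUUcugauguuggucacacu

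Transcripts of 8 of the 43 lysosomal genes were higher with AAV-TuD, 2 were lower, and 33 did not pass the test (edgeR, quasi-likelihood test, adjusted p under 0.05 by Benjamini-Hochberg over 13334 genes). The higher genes were the lysosomal membrane protein *Cd63*, the sulfatase *Arsb*, the glycosidases *Idua*, *Hexa* and *Man2b1*, the lipid and acyl hydrolases *Lipa* and *Ppt1*, and the membrane protein *Lamp2*. The lower genes were the membrane receptor *Scarb2* and the glycosidase *Gaa*. The 8 higher genes were 18.6% of the members, beside 7.24% of all genes tested. They include *Arsb* and *Idua*, which passed the low-count filter mainly through the AAV-TuD livers. With no filter the count of higher members was also 8. The 2 lower genes were 4.65%, beside 4.33%. The median log2 fold change was 0.11 over the members and -0.0024 over all genes tested, and 28 of the 43 members had a positive value. No protease, no soluble protein without enzyme activity and no proton pump subunit passed the test in either direction. Over all genes tested, 11.6% passed in either direction, so few or none are to be found in classes of this size.

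**Figure D1:**
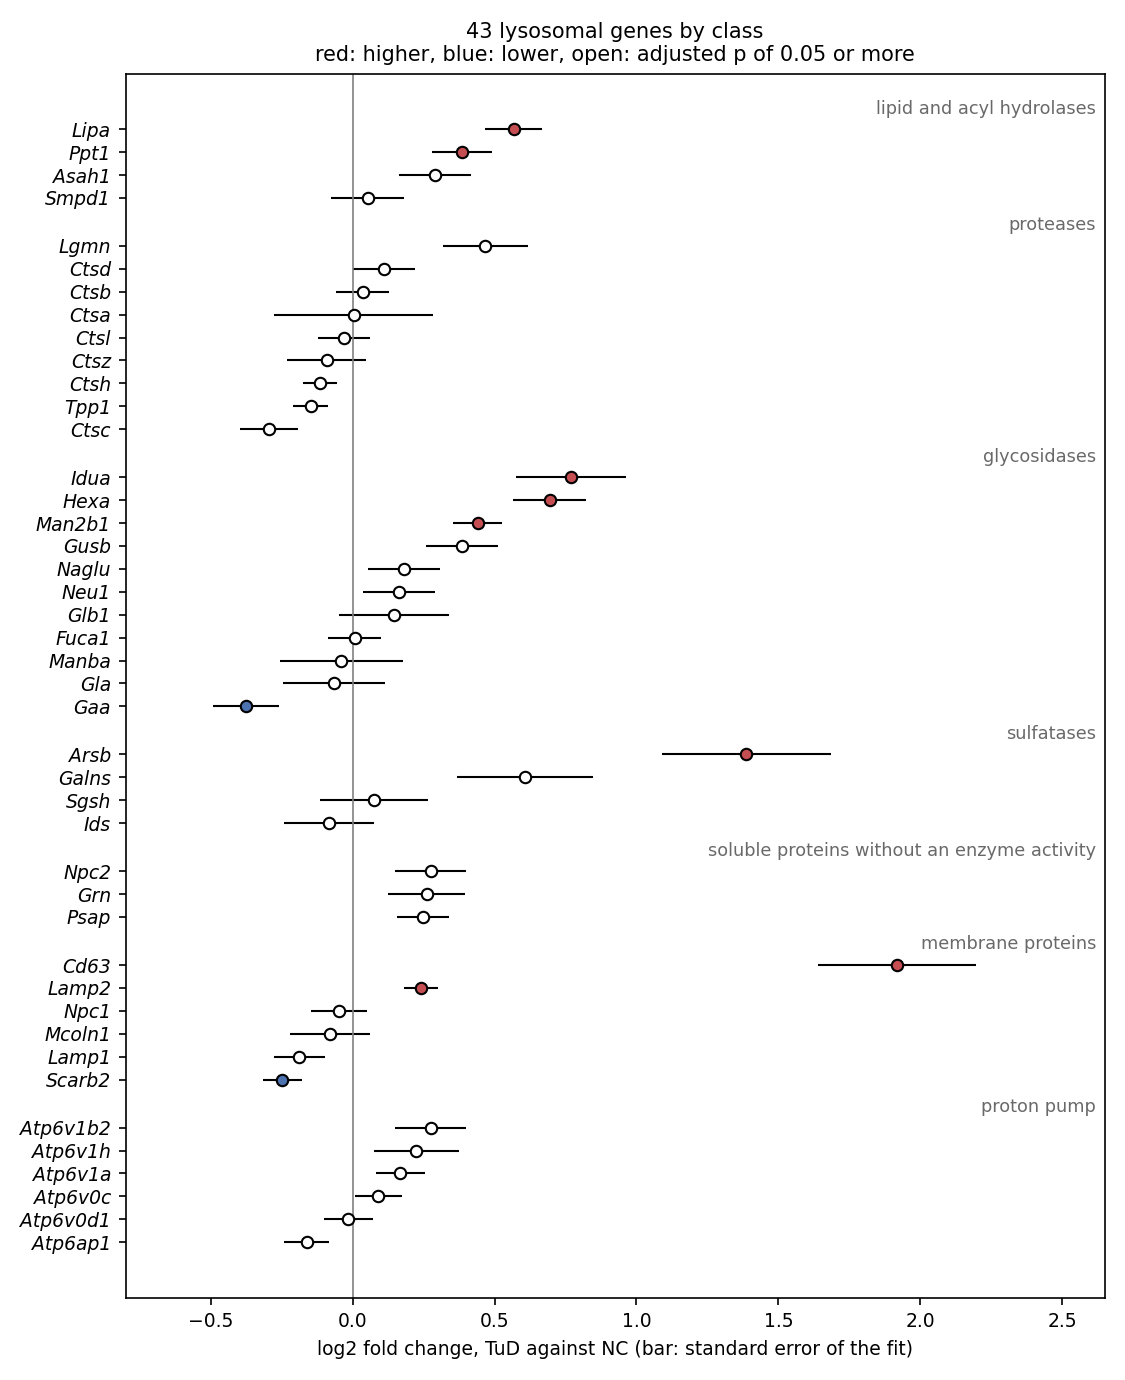
Log2 fold change of each of the 43 lysosomal genes, AAV-TuD against AAV-NC, grouped by class (x axis, log2 units; points, fitted values; bars, standard error of the fit). *Cd63* lies farthest to the right at 1.92 and *Gaa* farthest to the left at -0.38, and the proteases and pump subunits carry only open points, which did not pass the threshold.

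In 6 members every AAV-TuD liver was above every AAV-NC liver, which held for 4.11% of all genes tested. These were *Lipa*, *Idua*, *Man2b1*, *Arsb*, *Lamp2* and *Cd63*, of which *Idua* and *Arsb* had passed the low-count filter mainly through the AAV-TuD livers. In 2 members, *Scarb2* and *Tpp1*, every AAV-TuD liver was below every AAV-NC liver, which held for 3.28% of all genes. Without AAV-NC liver 7 and AAV-TuD livers 3 and 5, 8 members were higher, 1 was lower, and the median was 0.16. In that fit *Psap* was gained among the higher genes, and *Lamp2* and *Scarb2* were lost. When TMM was replaced by library size alone, 9 members were higher and none lower, but the median of all genes then moved to 0.23 and that of the members to 0.36, a difference of 0.12 between them, beside 0.11 with TMM. Gains and losses in what follows are relative to the TMM scaling.

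The levels of the 43 genes covered more than 2 orders of magnitude. Mean levels in AAV-NC livers ran from 1.18 CPM for *Arsb* to 217.7 CPM for *Lamp2*. After *Lamp2* came the cysteine proteases *Ctsb* (181.7 CPM) and *Ctsl* (178.5 CPM), *Grn* (170.5 CPM), *Psap* (168.4 CPM) and *Ctsh* (165.2 CPM). The standard deviations of *Ctsb*, *Ctsl*, *Grn* and *Psap* lay between 9.81 and 33.2 CPM, so the order of these neighbours is within the spread between livers. Summed over the 43 genes, the level was 2147 to 2372 CPM in the AAV-NC livers, with a mean of 2235 ± 83.5 (SD, n = 5), and 2130 to 2700 CPM in the AAV-TuD livers, with a mean of 2420 ± 199 (SD, n = 6). The groups overlapped, and the ratio of the means was 1.083. The lowest AAV-TuD sum was that of liver 3 and the highest that of liver 10.

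**Figure D2:**
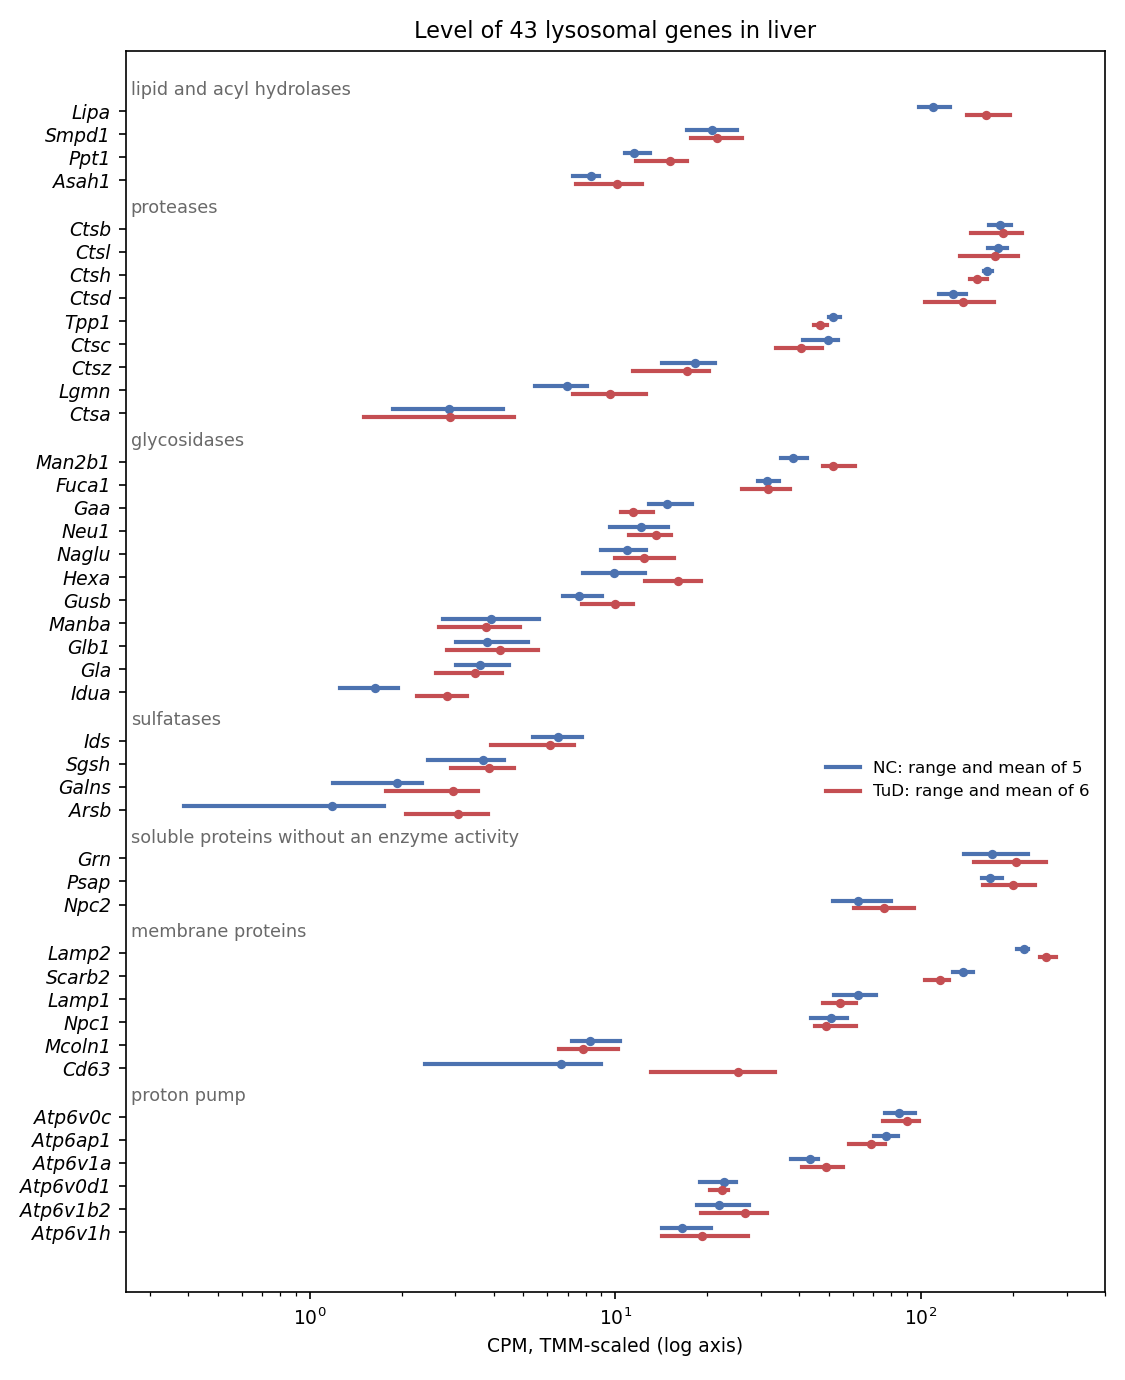
Level of each lysosomal gene in the 5 AAV-NC (blue) and 6 AAV-TuD (red) livers (x axis, TMM-scaled CPM on a log axis; lines, lowest to highest liver; points, group mean), ordered within each class by the AAV-NC mean. The red and blue lines do not meet for *Lipa*, *Man2b1*, *Idua*, *Arsb*, *Lamp2* and *Cd63*, where red lies to the right, and for *Tpp1* and *Scarb2*, where red lies to the left.

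Among the lipid and acyl hydrolases, *Lipa* and *Ppt1* rose and *Smpd1* and *Asah1* did not pass the test. *Lipa*, which encodes lysosomal acid lipase, the enzyme that frees cholesterol and fatty acids from cholesteryl esters and triglycerides, is the most abundant of the 4. It had 119.2, 125.0, 101.9, 104.8 and 98.8 CPM in AAV-NC livers 1, 2, 6, 7 and 8, and 141.4 to 196.3 CPM with a median of 156.6 in the AAV-TuD livers. Every AAV-TuD liver was thus above the highest AAV-NC liver. *Lipa* rose by 0.57 on the log2 scale with a standard error of 0.10 (adjusted p = 0.00288), and it lay between 0.51 and 0.62 when each liver was left out in turn.

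*Ppt1*, a thioesterase that removes palmitate from proteins and whose loss causes a neuronal ceroid lipofuscinosis, had 13.0, 10.95, 10.7, 11.6 and 11.4 CPM in the AAV-NC livers. In the AAV-TuD livers it had 11.7 to 17.2 CPM with a median of 15.3. Only AAV-TuD liver 5 fell within the AAV-NC range. *Ppt1* rose by 0.39 on the log2 scale with a standard error of 0.11 (adjusted p = 0.0274). The call was lost when AAV-NC liver 2, 6 or 8 or AAV-TuD liver 4 or 10 was left out, with the adjusted p rising to at most 0.0664 while the fold change stayed at 0.35 or more. The last exon of *Ppt1* overlaps *Cap1* on the opposite strand, and the strand setting of the counting is not given, so reads of the pair cannot be told apart.

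*Smpd1*, acid sphingomyelinase, differed by 0.05 on the log2 scale with a 95% interval of -0.22 to 0.32. *Asah1*, acid ceramidase, differed by 0.29 with an interval of 0.02 to 0.56 and an adjusted p of 0.159. The 4 genes together had 138 to 166 CPM in the AAV-NC livers and 186 to 250 CPM in the AAV-TuD livers without overlap, and *Lipa* made up most of both sums.

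None of the 9 proteases passed the test, beside 11.6% of all genes tested. Of these proteases, 4 are among the most abundant members. The most abundant was *Ctsb*, a cysteine protease of broad specificity. It had 186.6, 167.8, 179.6, 177.1 and 197.5 CPM in the AAV-NC livers, and 146.2 to 213.9 CPM with a median of 192.9 in the AAV-TuD livers. The AAV-TuD range enclosed the AAV-NC range. The log2 fold change of *Ctsb* was 0.04 with a 95% interval of -0.16 to 0.23. Its last exon overlaps *Fdft1* on the opposite strand, which had 461 reads per liver on average beside 1856 for *Ctsb*.

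The other abundant proteases had similarly narrow intervals. For *Ctsl*, another broad cysteine protease, the difference was -0.03 with an interval of -0.22 to 0.16. For *Ctsd*, the main aspartic protease, it was 0.11 with an interval of -0.12 to 0.34. For *Ctsh*, an aminopeptidase, it was -0.12 with an interval of -0.24 to 0.01. No bound of these intervals lay beyond 0.34 in either direction. The less abundant *Ctsz*, a carboxypeptidase, differed by -0.09, and *Ctsa*, whose product shields beta-galactosidase and neuraminidase in a complex, was at 2.87 CPM in AAV-NC livers and its interval of -0.59 to 0.60 was wide.

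*Tpp1*, *Ctsc* and *Lgmn* came closer to the threshold. *Tpp1*, a tripeptidyl peptidase, had 50.02 to 54.3 CPM in the AAV-NC livers and 44.6 to 49.5 CPM in the AAV-TuD livers. These ranges did not overlap, yet the log2 fold change of -0.15 had an adjusted p of 0.135. *Ctsc*, which activates serine proteases of immune cells, differed by -0.29 with an adjusted p of 0.0772, and without AAV-NC liver 2 it passed as lower at -0.36 (adjusted p = 0.0399). *Lgmn*, the asparaginyl endopeptidase that processes other cathepsins, differed by 0.47 with an adjusted p of 0.0529, and it passed the threshold with DESeq2 (adjusted p = 0.0428), with upper-quartile factors, with library size alone and without AAV-TuD liver 11.

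Of the 11 glycosidases, *Idua*, *Hexa* and *Man2b1* rose, *Gaa* fell, and 7 did not pass the test. *Man2b1*, the alpha-mannosidase that trims N-glycans, is the most abundant. It had 42.02, 35.0, 42.5, 36.3 and 35.0 CPM in the AAV-NC livers, and 47.8 to 61.0 CPM with a median of 49.8 in the AAV-TuD livers. All AAV-TuD livers lay above all AAV-NC livers. The log2 fold change was 0.44 with a standard error of 0.09 (adjusted p = 0.00452), and the call held with each liver left out in turn.

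*Hexa* encodes the alpha subunit of beta-hexosaminidase, the enzyme that degrades GM2 ganglioside. It had 9.43, 9.82, 7.86, 9.76 and 12.6 CPM in the AAV-NC livers, and 12.5 to 19.1 CPM with a median of 16.2 in the AAV-TuD livers. The groups met only at AAV-NC liver 8 and AAV-TuD liver 3, which had nearly the same level. *Hexa* rose by 0.69 on the log2 scale with a standard error of 0.13 (adjusted p = 0.00357).

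*Idua* encodes alpha-L-iduronidase, which removes iduronic acid from heparan and dermatan sulfate. It was a gene of low level, with 1.43, 1.26, 1.77, 1.75 and 1.95 CPM in the AAV-NC livers and 2.25 to 3.28 CPM with a median of 2.80 in the AAV-TuD livers. No AAV-TuD liver fell within the AAV-NC range. *Idua* rose by 0.77 on the log2 scale with a standard error of 0.19 (adjusted p = 0.0182). The value rests on an average of 23.5 reads per liver.

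*Gaa*, the acid alpha-glucosidase that degrades glycogen in the lysosome, went the other way. It had 12.9, 13.7, 16.6, 12.9 and 17.8 CPM in the AAV-NC livers, and 10.4 to 13.3 CPM with a median of 10.9 in the AAV-TuD livers. AAV-TuD liver 5 lay within the AAV-NC range and the others below it. *Gaa* fell, with a log2 fold change of -0.38 and a standard error of 0.12 (adjusted p = 0.0459). This call held in only 3 of the 11 fits with one liver left out: it was lost without AAV-NC liver 2, 6 or 8 or AAV-TuD liver 3, 4, 9, 10 or 11, with an adjusted p of up to 0.122. It was also lost with upper-quartile factors and with library size alone, where the value was -0.16.

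The glycosidases that did not pass had log2 fold changes from -0.07 to 0.38. *Gusb*, beta-glucuronidase, was nearest to the threshold at 0.38 (adjusted p = 0.0637), and it passed with library size alone and without AAV-NC liver 8 or AAV-TuD liver 10. *Naglu*, a heparan sulfate glucosaminidase, was at 0.18, *Neu1*, the lysosomal neuraminidase, at 0.16 and *Glb1*, beta-galactosidase, at 0.15. *Fuca1*, alpha-fucosidase, was at 0.01 with an interval of -0.19 to 0.21, *Manba*, beta-mannosidase, at -0.04 and *Gla*, alpha-galactosidase, at -0.07. Summed over the 11 glycosidases, the AAV-NC livers had 133 to 142 CPM and the AAV-TuD livers 150 to 179 CPM, without overlap.

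The 4 sulfatases remove sulfate groups from glycosaminoglycans and were all of low level. *Arsb*, the enzyme for dermatan and chondroitin sulfate, had 1.67, 0.881, 1.22, 1.75 and 0.389 CPM in the AAV-NC livers, and 2.07 to 3.82 CPM with a median of 3.13 in the AAV-TuD livers. The lowest AAV-TuD liver was above the highest AAV-NC liver. *Arsb* rose by 1.39 on the log2 scale with a standard error of 0.30 (adjusted p = 0.00816), from 23.0 reads per liver on average, and it lay between 1.14 and 1.57 with each liver left out. The annotation places a long non-coding RNA, *Gm26527*, opposite the last exon of *Arsb*; it was not analysed here.

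*Ids*, the iduronate sulfatase, is the most abundant of the 4. It had 6.21, 6.92, 6.09, 5.38 and 7.79 CPM in the AAV-NC livers, and 3.93 to 7.32 CPM with a median of 6.47 in the AAV-TuD livers. The ranges largely coincided apart from AAV-TuD liver 11, which was the lowest of all. The log2 fold change was -0.08 with an interval of -0.42 to 0.25. *Galns*, which acts on keratan sulfate, differed by 0.61 with an interval of 0.10 to 1.12 and an adjusted p of 0.116, and it passed as higher without AAV-TuD liver 3. *Sgsh*, the heparan N-sulfatase, differed by 0.07 with an interval of -0.33 to 0.48.

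The 3 soluble proteins without an enzyme activity all had positive values, and none passed the test, beside 11.6% of all genes tested. *Grn*, the precursor of the granulins, was the most abundant. It had 155.4, 157.0, 138.5, 177.0 and 224.6 CPM in the AAV-NC livers, and 149.1 to 256.8 CPM with a median of 204.4 in the AAV-TuD livers. The groups overlapped widely, with a log2 fold change of 0.26 (interval -0.03 to 0.55, adjusted p = 0.236). *Psap*, the precursor of the saposins that present sphingolipids to their hydrolases, differed by 0.25 (adjusted p = 0.0912), and it passed as higher without AAV-TuD liver 3 (adjusted p = 0.0206) and without the 3 livers with most *Mup* reads (adjusted p = 0.0437). *Npc2*, which hands cholesterol from the lumen to NPC1, differed by 0.27 (adjusted p = 0.179).

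The 6 membrane proteins moved apart: *Cd63* and *Lamp2* rose, *Scarb2* fell, and *Lamp1*, *Npc1* and *Mcoln1* did not pass. *Cd63*, a tetraspanin of late endosomes, lysosomes and exosomes, differed most of all 43 genes. It had 5.97, 8.43, 8.97, 2.38 and 7.59 CPM in the AAV-NC livers, and 13.1 to 33.3 CPM with a median of 27.2 in the AAV-TuD livers. The lowest AAV-NC liver was liver 7 and the lowest AAV-TuD livers were 5 and 3, the 3 livers with most *Mup* reads. *Cd63* rose by 1.92 on the log2 scale with a standard error of 0.28 (adjusted p = 0.000808), and it was 1.96 without those 3 livers.

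The last 500 bases of the *Cd63* transcript are 98.6% identical to the pseudogene *Cd63-ps*, so reads may be assigned to either copy and the level of each is uncertain. *Cd63-ps* had 3.74 CPM in AAV-NC and 4.47 CPM in AAV-TuD livers, a log2 difference of 0.27 with an adjusted p of 0.449. It had 41.7 reads per liver on average beside 182.9 for *Cd63*.

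*Lamp2*, one of the major glycoproteins of the lysosomal membrane and a receptor of chaperone-mediated autophagy, had 222.1, 216.0, 207.1, 218.6 and 224.5 CPM in the AAV-NC livers. In the AAV-TuD livers it had 245.0 to 277.3 CPM with a median of 254.8. The groups did not overlap and their spread was narrow. The log2 fold change was 0.24 with a standard error of 0.06 (adjusted p = 0.0171). Without the 3 livers with most *Mup* reads it was 0.24 with an adjusted p of 0.0578, and with library size alone it was 0.48 and the call was also lost. *Lamp1*, its close relative, differed by -0.19 with an interval of -0.38 to 0.00 (adjusted p = 0.198), and *Grtp1* lies opposite its last exon.

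*Scarb2* encodes LIMP-2, the receptor that carries glucocerebrosidase to lysosomes. It had 140.3, 127.5, 148.0, 141.7 and 128.9 CPM in the AAV-NC livers, and 103.3 to 123.6 CPM with a median of 115.7 in the AAV-TuD livers. All AAV-TuD livers were below all AAV-NC livers. *Scarb2* fell, with a log2 fold change of -0.25 and a standard error of 0.07 (adjusted p = 0.0298). The call was lost without AAV-NC liver 1, 6 or 7 or AAV-TuD liver 4, 5 or 11, with an adjusted p of up to 0.0722. Without the 3 livers with most *Mup* reads the log2 fold change was -0.19 (adjusted p = 0.155), and with library size alone it was -0.0020.

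*Npc1*, the membrane protein that exports cholesterol, differed by -0.05 with an interval of -0.26 to 0.16. *Mcoln1*, a calcium channel that acts upstream of TFEB, differed by -0.08 with an interval of -0.38 to 0.22.

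**Figure D3:**
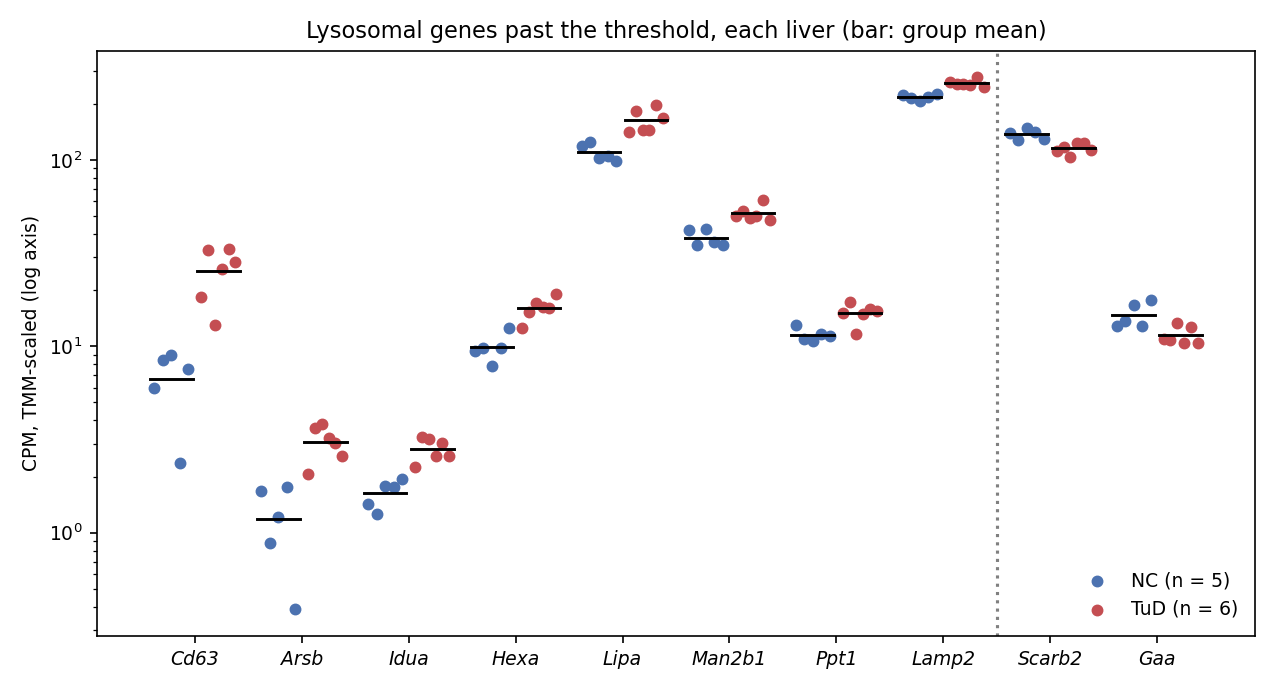
Level of the 10 lysosomal genes past the threshold (y axis, TMM-scaled CPM on a log axis), with each of the 5 AAV-NC (blue) and 6 AAV-TuD (red) livers as a point and the group mean as a bar; the dotted line parts the higher from the lower genes. In *Lipa*, *Idua*, *Man2b1*, *Arsb*, *Lamp2* and *Cd63* all AAV-TuD points lie above the AAV-NC points, in *Scarb2* all lie below them, and in *Ppt1*, *Hexa* and *Gaa* the groups touch or overlap.

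None of the 6 proton pump subunits passed the test, beside 11.6% of all genes tested. The most abundant was *Atp6v0c*, the proteolipid of the membrane ring. It had 88.0, 81.6, 76.5, 81.4 and 96.1 CPM in the AAV-NC livers, and 75.1 to 98.8 CPM with a median of 90.7 in the AAV-TuD livers. The ranges nearly coincided, and the log2 fold change was 0.09 with an interval of -0.09 to 0.27.

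The accessory subunit *Atp6ap1* was at -0.16 and the membrane-sector subunit *Atp6v0d1* at -0.02. In the cytosolic sector, the catalytic subunit *Atp6v1a* was at 0.17, *Atp6v1b2* at 0.27 and *Atp6v1h* at 0.22, and *Atp6v1b2* passed as higher without AAV-TuD liver 3 (adjusted p = 0.0389). The upper bounds of the 6 intervals did not exceed 0.54. The summed level of the 6 subunits was 244 to 291 CPM in the AAV-NC livers and 245 to 290 CPM in the AAV-TuD livers.

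Genes of the same compartment outside the 43 were counted by lists. Over all genes tested, 7.24% were higher and 4.33% were lower. Of 25 other lysosomal hydrolases tested, 4 rose (16%) and none fell, with a median of 0.18. They were the macrophage-rich protease *Ctss* (0.97, adjusted p = 0.00133), *Smpdl3a* (0.75, adjusted p = 0.00129), *Siae* (0.67, adjusted p = 0.00305) and *Fuca2* (1.07, adjusted p = 0.0204). Of 25 other lysosomal membrane proteins, 5 rose (20%) and 2 fell (8%), with a median of 0.06. Those with the smallest p were *Sidt2* (0.40), *Cd164* (-0.36), *Laptm5* (0.86) and *Slc29a3* (0.63).

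Of 12 other pump subunits, only *Atp6v0e2* rose (8.33%, beside 7.24% of all genes tested), from 0.72 to 2.18 CPM. With 0.38 to 1.19 CPM in the AAV-NC livers, it passed the low-count filter mainly through the AAV-TuD livers. Of 19 genes that sort hydrolases to lysosomes, including the mannose-6-phosphate receptors, only *Ap3s1* rose (0.48), which is 5.26% of them. Both shares are near that of all genes tested. The transcripts of the 4 MiT/TFE factors did not pass the test: *Tfe3* differed by 0.01, *Tfeb* by -0.03, *Mitf* by -0.10 and *Tfec*, which is rich in macrophages, by 0.58 with an adjusted p of 0.280.

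Markers of other liver cells also differed between the groups. Of 17 macrophage markers tested, 12 rose (70.6%, beside 7.24% of all genes tested) and none fell, with a median of 0.89. Examples are *Mpeg1* (0.98), *Cybb* (0.82), *Vsig4* (0.93) and *Lyz2* (1.34). Their summed level was 177 to 261 CPM in the AAV-NC livers and 216 to 570 CPM in the AAV-TuD livers. AAV-TuD liver 3 was the lowest of its group and liver 10 the highest, as they were in the sum over the 43 lysosomal genes. Liver 10 was also the highest AAV-TuD liver for stellate cell markers (580 CPM). Among the AAV-NC livers, liver 6 was lowest in both sums. The highest was liver 7 for macrophage markers (261 CPM) and liver 8 for the lysosomal genes (2372 CPM). Whether these sums move together was not tested.

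Of 12 stellate cell markers, 9 rose (75%, beside 7.24% of all genes tested), with a median of 0.76. Among them were *Col3a1* (1.91), *Col1a1* (2.30), *Col1a2* (1.3998) and *Dcn* (0.79). The sum over the 12 markers was 255 to 335 CPM with AAV-NC and 436 to 580 CPM with AAV-TuD, without overlap. Of 5 cholangiocyte markers tested, 4 rose (80%, beside 7.24% of all genes tested). These were *Spp1* (2.20), *Epcam* (1.9996), *Sox9* (0.82) and *Krt19* (1.46). The sum over the 5 markers tested was 24.04 to 45.6 CPM with AAV-NC and 51.3 to 83.9 CPM with AAV-TuD. *Epcam* (0.33 to 1.13 CPM with AAV-NC) and *Krt19* (0.39 to 1.38 CPM with AAV-NC) passed the low-count filter mainly through the AAV-TuD livers. None of 14 sinusoidal endothelial markers passed the test, beside 11.6% of all genes tested (median -0.03, sums of 452 to 488 and 441 to 500 CPM). Of 15 hepatocyte markers, *Apob* and *Hnf4a* fell (13.3%, beside 4.33% of all genes tested) and the others did not pass. The median of the 15 was -0.17. Their sum was 45135 to 51769 CPM with AAV-NC and 50458 to 57136 CPM with AAV-TuD. *Alb* had group means of 21096 and 28044 CPM. It differed by 0.41 (adjusted p = 0.0805), with every AAV-TuD liver above every AAV-NC liver, which held for 4.11% of all genes tested.

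No marker tested in these lists was at 0 in any liver. The part of these cells in the differences of *Cd63*, *Arsb*, *Hexa*, *Lipa* and the other lysosomal genes was not tested. In whole liver RNA, a change in the number of cells of a type cannot be told apart from a change in RNA per cell.

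**Figure D4:**
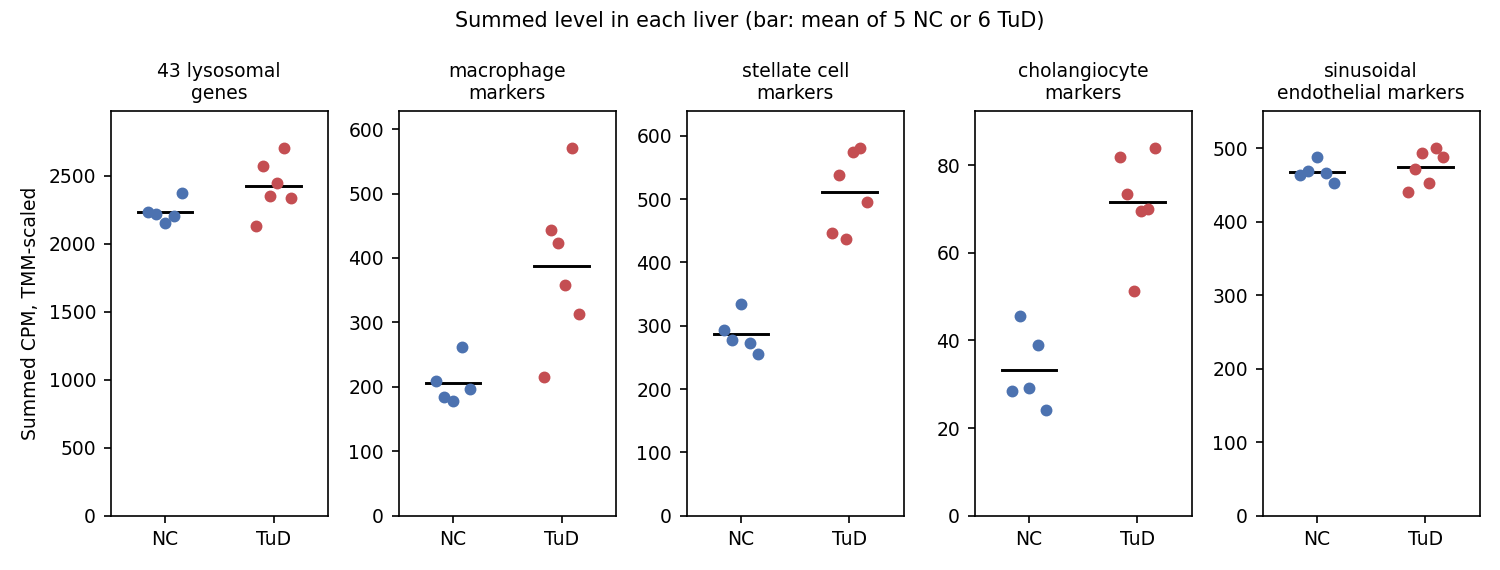
Summed CPM in each of the 5 AAV-NC (blue) and 6 AAV-TuD (red) livers for the 43 lysosomal genes and for the marker lists of other liver cells (y axes start at 0; points, livers; bars, group means). The AAV-TuD points lie above all AAV-NC points for the stellate cell and cholangiocyte markers, and overlap with them for the lysosomal, macrophage and sinusoidal endothelial sums.

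The promoters were searched for the E-box palindrome CACGTG and for its longer form TCACGTGA, which contains it. Both read the same on the 2 strands. RefSeq promoters on GRCm38.p6, from 250 bases before to 50 bases after the start, were at hand for 36 of the 43 genes, and not for *Asah1*, *Ctsb*, *Ctsh*, *Galns*, *Npc1*, *Atp6v1b2* and *Atp6v1h*. CACGTG was found in 13 of the 36 (36.1%), beside 7.15% of all 32851 promoters, 8.09% of all 27025 genes and 11.5% of the 8988 tested genes with a promoter. TCACGTGA was found in 6 of the 36 (16.7%), beside 0.974% of all promoters, 1.12% of all genes and 2.23% of the tested ones. Of 20 copies in the 13 genes, 19 lay before the start and 13 of them within 100 bases of it.

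The windows below show the 6 genes with the longer form, and 3 with the shorter form alone: *Gaa*, the holder that passed the test, *Lgmn*, the holder with the highest value, and *Lamp1*, with 4 copies, of which the first is shown. *Ctsa*, *Ctsd*, *Gla* and *Mcoln1* hold 2 copies of CACGTG each, of which 1 within the longer form is shown. Capitals mark the palindrome, and sequences run 5′ to 3′ on the strand of the gene.
Ctsa (chr2:164833749-164833778, plus): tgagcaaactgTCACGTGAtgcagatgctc
Ctsd (chr7:142387908-142387937, minus): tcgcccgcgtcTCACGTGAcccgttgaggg
Gla (chrX:134601182-134601211, minus): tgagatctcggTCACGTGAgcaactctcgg
Mcoln1 (chr8:3500462-3500491, plus): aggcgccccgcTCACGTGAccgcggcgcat
Atp6v0d1 (chr8:105566050-105566079, minus): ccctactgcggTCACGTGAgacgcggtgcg
Atp6v1a (chr16:44139373-44139402, minus): ttttttttaaaTCACGTGAtaggcttaacg
Lgmn (chr12:102439124-102439153, minus): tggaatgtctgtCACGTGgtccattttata
Gaa (chr11:119267811-119267840, plus): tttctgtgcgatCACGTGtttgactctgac
Lamp1 (chr8:13159088-13159117, plus): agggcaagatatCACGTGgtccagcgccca

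With TMM and all 11 livers, the higher genes were not among these holders. Of the 13 members with CACGTG, none was higher and 1, *Gaa*, was lower. Their median log2 fold change was 0.0039, with a range of -0.38 to 0.47. The holder *Lgmn* passed as higher with DESeq2 (adjusted p = 0.0428), upper-quartile factors and library size alone, and without AAV-TuD liver 11. Of the 23 members without it, 8 were higher and 1, *Scarb2*, was lower, with a median of 0.24. The 7 members without a promoter in the table had a median of 0.22, and none of them passed. The holders were of lower level, with a median of 10.9 CPM in AAV-NC livers beside 31.5 CPM in the non-holders. Over all tested genes with a promoter, 6.78% of the 1032 with CACGTG were higher and 8.04% of the 7956 without it, with medians of 0.0134 and 0.0125. At a share of 6.78%, few or none are to be found among 13 genes. The difference between holders and non-holders was not tested, and a match describes letters in this window and not a site in use.

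**Figure D5:**
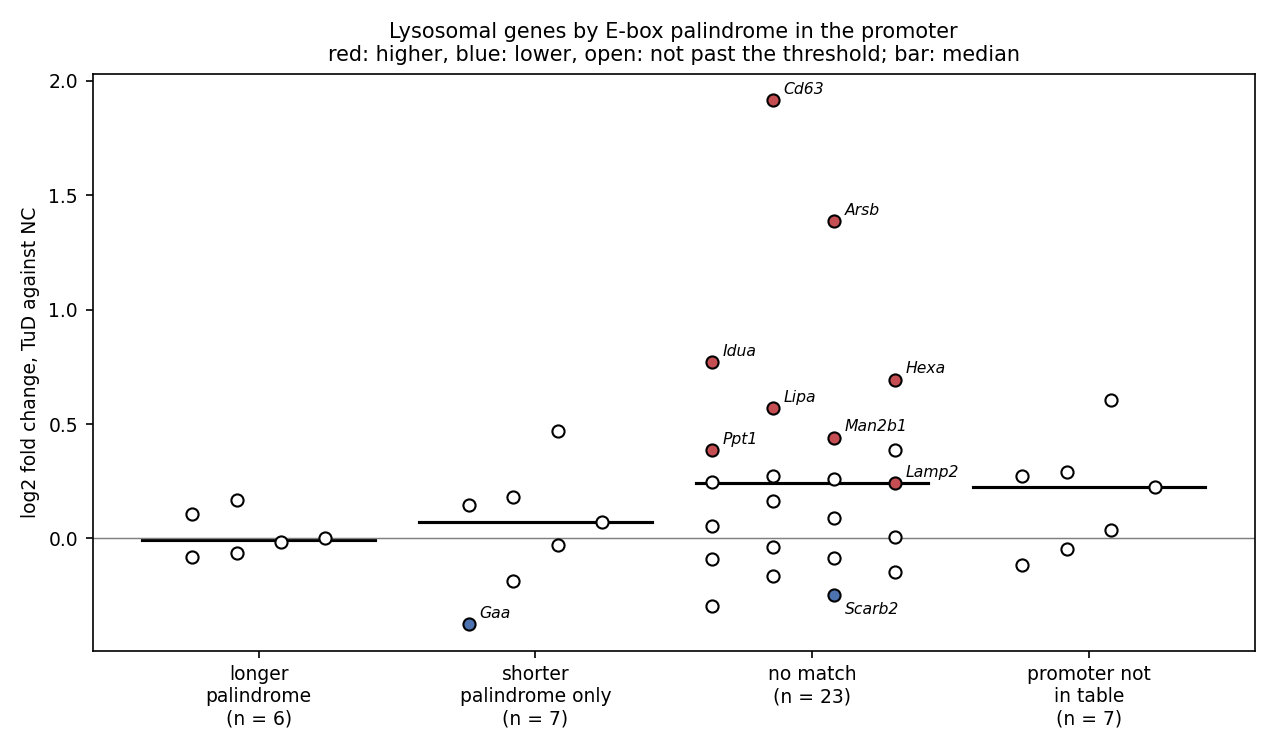
Log2 fold change, AAV-TuD against AAV-NC, of the 43 lysosomal genes by E-box palindrome in the promoter: 6 genes with the longer form, 7 with the shorter form alone, 23 with no match and 7 with no promoter in the table (points, genes; bars, medians). All 8 red points, the higher genes, stand in the group with no match.

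In the 3′ UTRs, matches to the seeds were about as frequent as in other genes. For each gene the longest 3′ UTR in GENCODE M21 (GRCm38) was searched, available for 43 members and for 10928 tested genes. A match to *miR-379* (GTCTACC) was found in 2 of the 43 members, *Idua* and *Gaa* (4.65%, beside 5.20% of all genes). A match to *miR-541* (AATCCCT) was found in 4, *Ctsc*, *Gla*, *Gusb* and *Ids* (9.30%, beside 8.95%). The sites in *Gaa*, *Ctsc* and *Gusb* lie in transcripts that end 9648 bases or more before the end of the gene. With the coding transcript that ends farthest downstream, a choice made after seeing the data, the matches were *Idua* for *miR-379* (2.33%, beside 4.92%) and *Gla* and *Ids* for *miR-541* (4.65%, beside 8.35%). Among the 8 higher genes, only *Idua* held a full match to these 2 seeds by either choice of UTR. With the small shares of all genes given above, few matches are to be found in most sets of 8 genes. Whether the higher genes are targets was not tested. The study lists *miR-379* and *miR-541* among the microRNAs that a prediction tool places on the *Lipa* 3′ UTR. Shorter matches and the seeds of other microRNAs of the cluster were not searched.

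The sites of *Idua*, *Gla* and *Ids* are shown, with that of *Gaa* because it passed the test in the opposite direction. Capitals mark the match, and sequences run 5′ to 3′ on the strand of the gene.
Idua (chr5:108683778-108683806, plus, miR-379): ctggccttccaGTCTACCtgaaactgcaa
Gaa (chr11:119273081-119273109, plus, miR-379): tcagcaaacctGTCTACCtcattccaaac
Gla (chrX:134588283-134588311, minus, miR-541): tactggcctcaAATCCCTtgaaatacaag
Ids (chrX:70344152-70344180, minus, miR-541): tgtcttcctaaAATCCCTcttgacccctg

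*Idua*, with a match to *miR-379*, rose by 0.77 on the log2 scale, whereas *Gla* and *Ids*, with a match to *miR-541*, differed by -0.07 and -0.08. The median length of the 3′ UTR searched was 1090 bases in the members and 1214.5 in all genes.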

How the data were processed

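Liver RNA of 11 mice (5 AAV-NC, 6 AAV-TuD) was analysed. After trimming with BBDuk, the authors used STAR 2.5.3a for alignment to GRCm38 and Rsubread for counting, and the deposited values are raw read counts per gene. The submitters' processing notes also name DESeq2 1.38.3. Annotation, strand setting and treatment of reads with several matches are not given in the sources used here. Groups follow the labels.

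Genes with over 10 counted reads in 5 or more livers entered edgeR 4.0.16 (R 4.3.3, TMM, quasi-likelihood test, all 11 livers, Benjamini-Hochberg over 13334 genes, adjusted p under 0.05). CPM were scaled by TMM. For log2 CPM, a prior count of 2 was added. Each standard error is the absolute log2 fold change divided by the square root of the F statistic of the fit. The 95% intervals were built from it with the t distribution. The script was tested on simulated data. With 8148531 to 12043959 reads per liver, genes near 1 CPM had few reads. Replicate livers differed beyond counting noise, with at least 7.20 chi-square per degree of freedom over 25 pairs. Nothing in the labels says more of their origin, and p values set the difference between groups against the spread between these livers.

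Members and lists were chosen with earlier results of these data known, so lists are described by counts and medians. Values per liver are given for members past the threshold and the most abundant member of each class, and up to 4 genes, those with the smallest p, are named from other lists. Similar and overlapping 3′ ends were found with BLAST 2.17.0 (95% identity over 200 bases of the last 500) and GENCODE M21. Alternatives were DESeq2 1.42.0, its size factors, upper-quartile factors, library size alone, limma 3.58.1 (voom with quality weights), no filter, filterByExpr, removal of *Mup* genes, and leaving out single livers. Leaving out 3 livers together and the second choice of 3′ UTR were added after seeing the data.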

Additional observations from a re-analysis of the deposited data

Results flagged for a closer look

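In 6 of 86 groups of livers, 1 liver stood far from the others of its group in the log2 CPM of a lysosomal gene, where the gap to its nearest neighbour was a large share of the whole range. Chance alone flags about 1 in 20 such groups, 4.3 of the 86. In AAV-TuD livers this share was 0.626 for *Ppt1*, with liver 5 lowest, 0.662 for *Ctsz*, with liver 3 lowest, 0.691 for *Ids*, with liver 11 lowest, and 0.735 for *Npc1*, with liver 11 highest. In AAV-NC livers it was 0.765 for *Galns*, with liver 1 lowest, and 0.711 for *Atp6v1a*, with liver 2 lowest. Of these genes only *Ppt1* had passed the test.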

How the results depend on the processing

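No paired analysis was possible because the AAV-NC livers (1, 2, 6, 7 and 8) and AAV-TuD livers (3, 4, 5, 9, 10 and 11) share no replicate number. The count of higher members was 7 to 11 in all fits (8 as reported). It was 9 with DESeq2, upper-quartile factors and library size alone, and 11 without AAV-TuD liver 3, where *Galns*, *Psap* and *Atp6v1b2* passed as well. The count of lower members (2 as reported) was 1 with upper-quartile factors, 0 with library size alone, 1 without AAV-NC liver 7 and AAV-TuD livers 3 and 5, and 0 to 2 with each liver left out (0 without AAV-NC liver 6 or AAV-TuD liver 4 or 11). The median log2 fold change (0.11 as reported) was 0.36 with library size alone, where that of all genes was 0.23 and 95.1% of all calls were higher, beside 62.6% with TMM. It was 0.16 without the 3 livers together, and 0.067 (without AAV-TuD liver 10) to 0.16 (without AAV-TuD liver 3) with each liver left out.

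Library size alone turned the sign of 12 members that had not passed the test, to 0.12 for *Ctsh*, 0.22 for *Ctsl*, 0.13 for *Ctsz*, 0.087 for *Tpp1*, 0.14 for *Gla*, 0.22 for *Manba*, 0.13 for *Ids*, 0.042 for *Lamp1*, 0.19 for *Npc1*, 0.14 for *Mcoln1*, 0.22 for *Atp6v0d1* and 0.075 for *Atp6ap1*. *Ctsa* was at -0.0017 with the size factors of DESeq2 and -0.084 with voom, and *Fuca1* at -0.017 with voom. Without the 3 livers together, *Ctsa* was at -0.15, *Ctsl* at 0.052, *Manba* at 0.057, *Npc1* at 0.026 and *Atp6v0d1* at 0.010. With each liver left out, values crossed 0 for *Atp6v0d1* (-0.075 to 0.021), *Smpd1* (-0.0095 to 0.14), *Ctsa* (-0.17 to 0.19), *Fuca1* (-0.043 to 0.062), *Npc1* (-0.12 to 0.00034), *Mcoln1* (-0.16 to 0.017), *Manba* (-0.15 to 0.13), *Gla* (-0.13 to 0.032), *Sgsh* (-0.053 to 0.14), *Ctsz* (-0.17 to 0.0017), *Ctsl* (-0.081 to 0.037), *Ctsb* (-0.0043 to 0.10) and *Ids* (-0.14 to 0.022). No member past the threshold turned its direction under any setting. The cause of these changes was not tested. Depth limits the genes near 1 CPM, such as *Arsb* and *Idua*.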
